A study of Rattus norvegicus with 6 samples.

Results

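Interleukin 6 (IL-6) family cytokines, their receptors, the transcription factor Stat3 and its feedback inhibitor Socs3 were followed in rat pancreas: 10 genes, chosen by symbol, out of 13903 genes named on the array. Each of the 10 had 1 probe with 1 spot, out of 24684 noncontrol probes. IL-6 binds its receptor, encoded by Il6r, and the pair then engages gp130, a shared signalling chain encoded by Il6st. Janus kinases bound to gp130 phosphorylate STAT3, which enters the nucleus and switches on its targets, among them Socs3, whose product blocks further signalling. In clinical practice IL-6 in serum is used as a marker of severe acute pancreatitis.

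The tissue came from male rats of 6 weeks. Acute pancreatitis (AP), an inflammation in which digestive enzymes injure the gland, had been induced by injecting 1 mL/kg of 4% sodium taurocholate, a bile salt, backwards into the pancreatic duct, and the rats were killed 9 h later. The comparison group is labelled control, and the labels do not say whether these rats had a sham operation. Each group has 3 deposited scans, but AP 2 and AP 3 were 2 scans of 1 array, and so were control 2 and control 3: the scatter of replicate spots around their probe's mean correlated with r = 0.994 and 0.997 in these pairs, against 0.415 to 0.808 in the 13 other pairs (1845 spots, which are not independent), and each pair lay in 1 slot of the slide. Scans of an array were averaged, which left n = 2 arrays per group; this number limits the precision of every value, and p-values measure the spread between these arrays only, since the labels do not tie arrays to animals. Each array had a slot of its own, so slot and group cannot be told apart. Scans 1 and 2 of each group came from 1 scan session and scan 3 from another; within the first session alone no call among the 10 genes changed.

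Each level is a log2 signal minus the log2 of the 75th percentile signal of its scan. That percentile was 71.7 to 79.1 on AP scans and 143 to 149 on control scans; probes well above background numbered 10941 to 11449 on AP scans and 13084 to 15448 on control scans, and no spot was saturated. This scaling matters for each fold: without it the median log2 fold change over all tested genes was -0.99, against -0.03 with it, and the probes past the threshold split into 768 higher and 7797 lower on AP arrays, against 3556 and 3727 with it. A probe entered the test if 3 or more of the 6 scans marked it as well above background, and it changed at an adjusted p below 0.05 (limma, Benjamini-Hochberg over 13225 probes, two-sided). Of these probes 55.1% changed, 26.9% higher and 28.2% lower; of 8735 named genes, each by its brightest probe, 56.0% changed, 24.1% higher and 31.9% lower. Of 16 acinar cell markers with a probe, 13 were tested, 9 were higher on AP arrays and 4 did not pass. That count depends on the scaling: without it 1 was higher and 4 were lower. Where the background was corrected by normexp before scaling to the 75th percentile, 3 were higher and 0 lower. The acinar transcription factors Ptf1a and Rbpjl were not well above background on any scan. Bhlha15, another acinar transcription factor, was well above background on every scan and 4.13-fold higher on AP arrays (limma adjusted p = 0.0014). Its log2 difference before scaling was 1.09. In whole tissue, fewer cells of a type and less RNA per cell cannot be told apart.

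Il6, a cytokine known to rise in pancreatitis, and Stat3 were lower on the arrays labelled AP. Il6 was above background on no AP scan and on every control scan, and Stat3 fell 2.58-fold. Il10, an anti-inflammatory cytokine that signals through STAT3 by a receptor without gp130, rose 3.67-fold. Il6r and Socs3 did not pass the test, and the other 5 genes were at or near background. Of the 10 genes 5 could be tested, and 3 of these changed, 1 higher and 2 lower, a share near the 56.0% of all genes that changed. Il6 entered the test through its control scans alone. With probes above background on all 6 scans it drops out, and of 4 tested 1 was higher and 2 were lower, Stat3 and Il6r. Whether the group labels match the tissues was not tested, and every direction follows the labels. The authors' deposited normalized values gave the same direction for the 5 tested genes. They come from the same scans under the same labels, so they cannot test the labels.

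**Figure D1:**
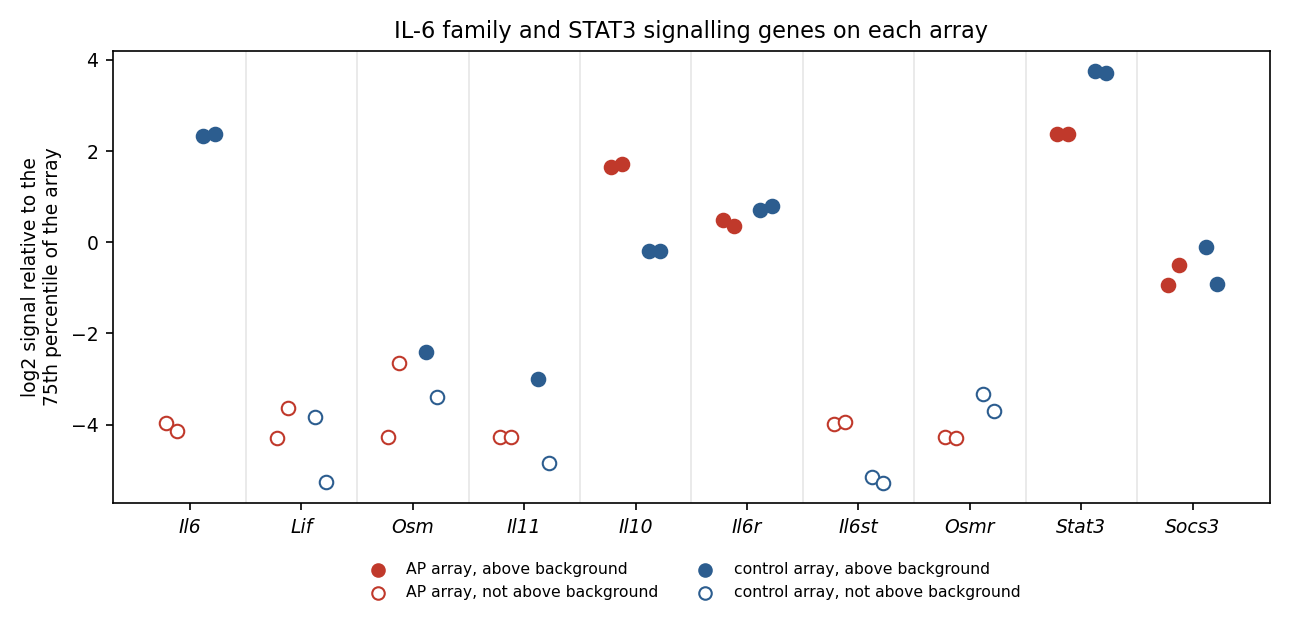
Log2 signal relative to the 75th percentile of the array (vertical axis) of each of the 10 genes on the 2 AP arrays (red) and the 2 control arrays (blue); filled points were well above background on at least 1 scan of the array, open points on none. Levels can be compared between groups of 1 gene, not between genes; both AP points of Il6 are open, at -3.96 and -4.14, with its control points at 2.33 and 2.38, while Il10 is the tested gene with both AP arrays above both control arrays.

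Among the cytokines, Il6 had a processed signal of 3.77 to 4.99 on the AP scans, none of them well above background, and of 735 to 759 on the control scans. The scaled level was -3.96 and -4.14 on the AP arrays and 2.33 and 2.38 on the control arrays. The groups did not overlap, and the 2 arrays of a group lay within 0.18 of each other. Against the lowest signal that counted as above background on the AP scans, Il6 was at least 29.1-fold lower (fitted log2 fold change -6.41 ± 0.11, SE, n = 2 per group, limma adjusted p = 0.000604). That signal is 1 value for a whole scan, and single probes may be detected above or below it. With normexp background correction, which adds an offset of 50 to every spot, the fitted difference was -2.27 with the 75th percentile and -2.34 with quantile normalization, and it still passed the test.

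The promoter windows of Il6 and Stat3 are shown because these are the genes that changed for which the RefSeq table, on build GRCr8, has a window; the array design itself was annotated on rn4. Each runs from 250 bases before to 50 bases after the start of the transcript, 5′ to 3′ on the minus strand, at chr4:5894526-5894825 for Il6 and chr10:86363310-86363609 for Stat3. Capitals mark matches to an NF-kappaB motif, which was GGGA and CC with any 4 bases between them, to an AP-1 motif, TGANTCA, or to a STAT motif, TTCNNNGAA, on either strand.
Il6: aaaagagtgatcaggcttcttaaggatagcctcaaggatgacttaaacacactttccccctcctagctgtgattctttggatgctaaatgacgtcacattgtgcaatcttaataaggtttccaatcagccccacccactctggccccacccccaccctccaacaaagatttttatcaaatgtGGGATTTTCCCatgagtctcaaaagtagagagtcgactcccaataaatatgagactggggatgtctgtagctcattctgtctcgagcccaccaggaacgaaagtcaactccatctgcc
Stat3: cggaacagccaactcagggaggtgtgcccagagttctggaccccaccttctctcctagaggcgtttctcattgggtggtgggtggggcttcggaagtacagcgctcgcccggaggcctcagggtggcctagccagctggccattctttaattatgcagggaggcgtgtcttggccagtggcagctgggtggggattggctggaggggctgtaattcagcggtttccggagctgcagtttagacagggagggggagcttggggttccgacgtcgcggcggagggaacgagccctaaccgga
The Il6 window holds the NF-kappaB motif on both strands in 1 overlapping run, from -68 to -58 relative to the start, and the Stat3 window holds none of the 3 motifs. Of the 10 genes 7 had a window, and 2 of these, Il6 and Il6st, held the NF-kappaB motif, against 19.3% of 33469 promoter windows. The AP-1 motif stood in the windows of Il11 and Osmr, against 7.33% of all windows. The STAT motif stood in none of the 7, against 8.87% of all windows. Each window follows the annotated start of a transcript, and whether transcription begins there was not tested. The Il6st match lay across that start, from -1 to 8. A match is only a match of letters, and a window without one says nothing about the factor.

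Il10 had a scaled level of 1.65 and 1.71 on the AP arrays and of -0.20 and -0.19 on the control arrays. Both AP arrays lay above both control arrays, and the gap was far wider than the 0.06 between arrays of a group. The log2 fold change was 1.88 ± 0.09 (SE, n = 2 per group, 95% interval 1.61 to 2.14, limma adjusted p = 0.00115). Il10 was also brighter on the AP scans before any scaling, with a processed signal of 233 to 244 there and 124 to 128 on the control scans. That difference was 0.92 in log2, and 1.03 with normexp correction and the 75th percentile, both past the threshold. Of the 10100 probes above background on all 6 scans, 96.4% had a lower fold change.

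The gp130 cytokines Lif, Osm and Il11, which act through gp130 with receptor chains of their own, gave no fold. Lif, the leukaemia inhibitory factor, was not well above background on any of the 6 scans, with processed signals of 3.95 to 7.99 on AP and 3.09 to 10.4 on control scans. Osm, oncostatin M, which myeloid and T cells make, read 3.99 to 14.6 on the AP scans, none well above background; control 1 was well above background at 27.7, and the other control scans read 13.4 and 14.0. Il11 read 3.41 to 4.08 on the AP scans, against 18.4 on control 1, the 1 scan well above background, and 3.58 and 6.89 on the rescanned control array. In both genes no AP array and 1 of 2 control arrays measured the transcript, and the group means were too close to background for a bound.

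Among the receptors, Il6r read 0.49 and 0.35 on the AP arrays and 0.71 and 0.79 on the control arrays. The AP arrays were lower without overlap, but the difference did not pass the adjusted test (log2 fold change -0.33 ± 0.11, SE, 95% interval -0.63 to -0.02, limma adjusted p = 0.0706). It passed in 5 of 19 other settings. Without scaling it was -1.28 (adjusted p = 0.00244), close to the -0.99 by which the median gene moved there.

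Il6st, the gp130 chain, and Osmr, the oncostatin M receptor chain, were not well above background on any scan. The Il6st probe read 4.40 to 5.03 on AP and 3.55 to 4.17 on control scans, and the Osmr probe 3.35 to 4.01 and 10.4 to 14.6. With no filter on dim probes both passed the threshold in a fit where 41.2% of all probes did, Il6st as higher (1.24, adjusted p = 0.00822) and Osmr as lower (-0.77, adjusted p = 0.0453). Before scaling the Il6st difference was 0.29. Neither group has a measured level of these genes, so no fold is given.

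Stat3, the transcription factor at the end of the gp130 and IL-10 pathways, was lower on AP arrays. Its scaled level was 2.37 on both AP arrays and 3.75 and 3.72 on the control arrays, with a processed signal of 365 to 401 on AP scans and 1864 to 1982 on control scans. All AP values lay below all control values. The log2 fold change was -1.37 ± 0.09 (SE, n = 2 per group, 95% interval -1.63 to -1.11, limma adjusted p = 0.00196). Of the 10100 probes above background on all scans 8.22% had a lower fold change. Without scaling the difference was -2.32, where the median gene moved by -0.99.

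Socs3 varied between arrays more than it differed between groups. It read -0.93 and -0.49 on the AP arrays and -0.11 and -0.92 on the control arrays, so the groups overlapped. The 2 AP arrays stood 0.44 apart, with 0.07 between rescans, and the 2 control arrays 0.81 apart, with less than 0.01 between rescans. The SD between AP arrays was larger than for 88.8% of the 10100 probes above background on all scans, and the SD between control arrays larger than for 95.7%. The log2 fold change was -0.19 ± 0.35 (SE, 95% interval -1.19 to 0.81, limma adjusted p = 0.676). It turned to 0.03 without AP replicate 1 and to 0.22 without control replicate 1, and it was called lower only without scaling (-1.15, adjusted p = 0.0444).

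**Figure D2:**
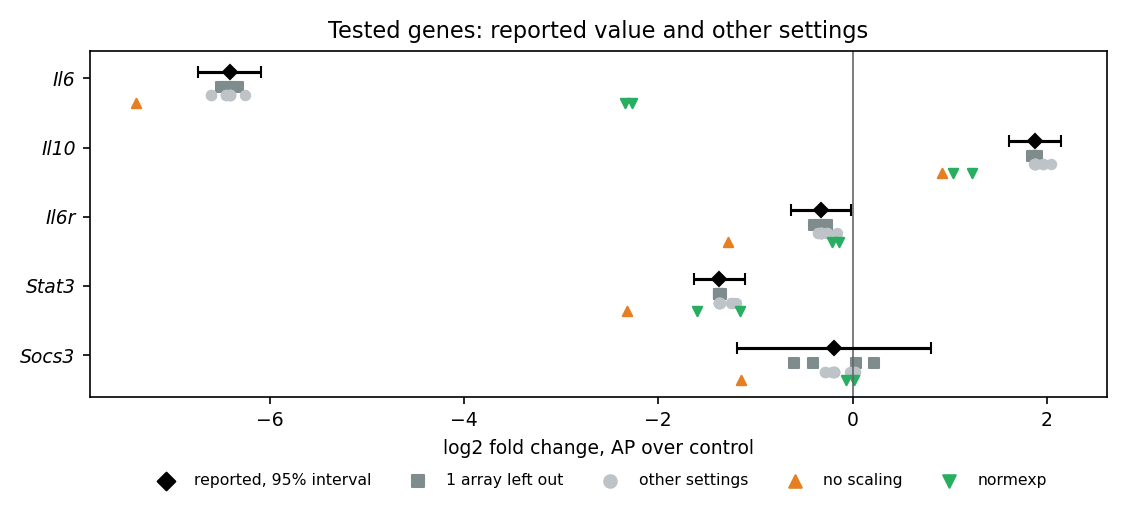
Log2 fold change of AP over control (horizontal axis) of the 5 tested genes. Black diamonds are the fitted values with their 95% intervals, grey squares leave out 1 array, and other symbols are other settings. The Il6 diamond rests on AP readings at background, and its bound in log2 is -4.86. Il6 and Stat3 stay left of 0 and Il10 right of it throughout, and Socs3 lies on both sides.

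The other genes of the pathway were counted in 4 lists. Of 14 further cytokines that act through gp130 or another receptor coupled to STAT3, 8 were tested, 1 was higher, 4 were lower and 3 did not pass, with a median log2 fold change of -1.21, or -0.84 with dim genes at their bound, against -0.03 over all genes, of which 56.0% changed. The median turned to 0.14 under normexp with the 75th percentile, where 1 gene passed. Csf3, the granulocyte colony stimulating factor, read 2.15 and 2.04 on the AP arrays and 3.53 and 3.60 on the control arrays (-1.47 ± 0.10, SE, limma adjusted p = 0.00212). Ebi3, a subunit of IL-27, fell by 0.96 (adjusted p = 0.00593), and Ctf1, cardiotrophin 1, was at least 1.64-fold lower, being above background on the control scans only. Il24 was also above background on the control scans only, with a mean of -4.21 on AP and -2.54 on control arrays and no bound above 1. Ctf1 and Il24 thus entered the test through the control scans alone, and both count among the 4 lower genes. With probes above background on all 6 scans 3 cytokines were tested, 1 higher and 2 lower (median -0.96). Under normexp correction with the 75th percentile Ctf1 and Il24 stood at 0.14 and Ebi3 at -0.30, none of them past the threshold. Il20, a cytokine of epithelial and myeloid cells, was higher (1.15 ± 0.09, SE, adjusted p = 0.00275), but not without scaling (0.19, adjusted p = 0.214) nor with that normexp setting (0.53, 0.140).

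Of 14 further receptor genes 10 had a probe and 5 were tested, of which 2 were higher, 2 were lower and 1 did not pass (median -0.47), beside 56.0% of all genes changed. Under normexp with the 75th percentile the median was 0.12, with 2 higher and none lower. Il21r, the receptor chain for IL-21 on lymphocytes, read -0.12 and -0.31 on the AP arrays, was not above background on any control scan, and was at least 11.5-fold higher (limma adjusted p = 0.000604). Csf3r, the receptor for Csf3 on neutrophils and their precursors, was the reverse, with no AP scan above background and -0.98 and -0.79 on the control arrays, at least 3.07-fold lower (adjusted p = 0.00075). It lost its call under normexp with the 75th percentile (-0.31, adjusted p = 0.408). Il21r and Csf3r each entered the test through the scans of 1 group alone. With probes above background on all 6 scans 3 receptor genes were tested, 1 higher and 1 lower. Il22ra2, a soluble decoy receptor for IL-22, was 2.77-fold higher (adjusted p = 0.00313). Il10rb, the second chain of the IL-10 receptor, was 1.63-fold lower (adjusted p = 0.0114) and lost its call without control replicate 1, at an adjusted p that rounds to 0.05, without the second control array (0.0649) and under that normexp setting (0.267). Il10ra, the chain that binds IL-10, was not above background on any scan.

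Of 27 kinases, STATs and regulators 22 had a probe and 17 were tested: 6 were higher, 4 lower and 7 did not pass (median -0.32), a share near the 56.0% of all genes that changed. Without scaling 3 were higher and 11 lower. The higher genes included Stat4, a STAT of T and NK cells, which read 1.22 and 1.36 on the AP arrays and -1.80 and -2.43 on the control arrays (3.41 ± 0.26, SE, limma adjusted p = 0.00245). Jak3, the Janus kinase of lymphocytes, was 3.76-fold higher and Ptpn6, a phosphatase of blood cells that opposes cytokine signalling, 3.04-fold higher. Socs1, a feedback inhibitor best known for interferon signalling, was 2.32-fold higher (adjusted p = 0.00508), but not past the threshold without scaling (0.26, adjusted p = 0.125) or under normexp with the 75th percentile (0.73, 0.073). Jak2, a Janus kinase bound to gp130 among other receptors, was 2.76-fold lower (adjusted p = 0.00192), and -0.29 in log2 under normexp with the 75th percentile (adjusted p = 0.417). It was well above background on only 1 AP scan, so its AP level of -1.98 lies near background and the fold is uncertain. Socs5, another inhibitor of the family, was 2.81-fold lower.

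Of 32 genes known as targets of STAT3 or IL-6, 27 were tested: 16 were lower, 3 were higher (A2m 1.75, Irf1 0.70 and Reg3a 0.42) and 8 did not pass. The median was -1.18, against -0.03 over all genes, and 31.9% of all genes were lower. Without scaling 22 targets were lower and 1 was higher (median -2.14), where the median gene moved by -0.99. Under normexp with the 75th percentile 12 were lower and 1 was higher (median -0.5). Fgg and Reg3g, both lower, entered the test through the control scans alone. With probes above background on all 6 scans 22 targets were tested, 14 lower and 3 higher (median -1.38). Before scaling Irf1 and Reg3a were lower on AP arrays (-0.25 and -0.53), while A2m was higher (0.79). Timp1, an inhibitor of metalloproteinases, read 2.03 and 1.91 on the AP arrays and 7.70 and 7.71 on the control arrays (-5.74 ± 0.10, SE, limma adjusted p = 0.000604). Cebpb, a transcription factor first found as a regulator of the IL-6 gene, read 0.91 and 0.76 on the AP arrays and 4.92 and 5.02 on the control arrays, 17.6-fold lower. Lcn2, an iron-scavenging acute phase protein, was 14.3-fold lower, the lipopolysaccharide receptor Cd14 7.77-fold, the IL-4 receptor Il4r 6.09-fold and the angiogenic factor Vegfa 6.02-fold. Vegfa fell on all 5 of its tested probes, and missed the threshold without the second control array (-2.51, adjusted p = 0.0504). The targets did not move as 1 block: A2m, an acute phase protease inhibitor of the rat, rose 3.35-fold (adjusted p = 0.00130), and for Bcl2l1, an antiapoptotic gene, 2 probes were lower (-2.31 and -2.19) and 2 higher (2.08 and 3.01).

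**Figure D3:**
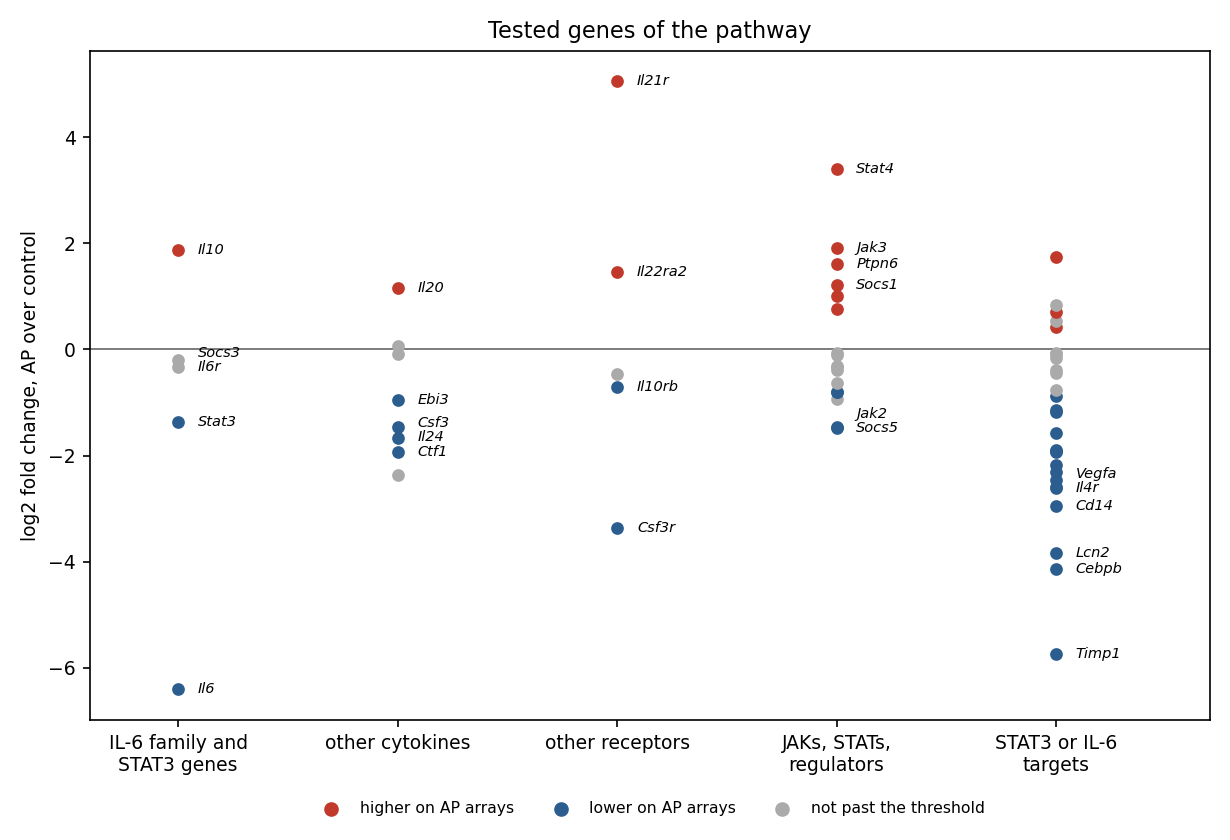
Log2 fold change of AP over control (vertical axis) of every tested gene in the 5 groups of genes; red points were higher, blue points lower and grey points not past the threshold, and labels name the genes with the largest changes in each group. The targets of STAT3 or IL-6 lie mostly below 0, from Timp1 at -5.74 up, while Stat4, Jak3, Ptpn6 and Il21r lie above it.

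Markers of several cell types moved with the same groups. The summed relative signal of 12 lymphocyte markers was 41.3 to 42.2 on AP arrays and 3.99 to 4.57 on control arrays, and all 10 tested were higher; Cd4 was not above background on any scan. These are the arrays on which Il10, Il21r, Stat4, Jak3 and Ptpn6 were higher. So were 24.1% of all named genes and 9 of 13 tested acinar markers. Fat cell and fibroblast markers were lower on the same arrays as Il6, Stat3 and most of the targets, as were 31.9% of all named genes. With 2 groups every gene that changed in 1 direction shares its pattern, so no cell source can be read from it. The sum of 9 adipocyte markers was 17.2 on both AP arrays and 463 to 467 on control arrays, with 8 of 9 lower. The sum of 8 fibroblast markers was 28.5 to 34.0 on AP arrays and 84.9 on control arrays, with 6 of 9 tested lower and 1 higher; Thy1 was not above background on any scan, and Dcn and Sparc, both lower, are not in the sum because they lack a value on 1 array. Without the brightest marker, Fabp4 or Col3a1, both sums kept their direction.

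The sums of 3 other lists rested on 1 marker each. The sum of 8 neutrophil markers was 4.92 to 7.88 on AP arrays and 19.0 to 20.5 on control arrays, but without S100a8, which was at least 90.7-fold lower, it was 4.80 to 7.79 on AP arrays and 3.69 to 3.78 on control arrays. Of the 7 tested, 3 were lower, Csf3r among them, and 3 were higher; Mmp8 was not above background on any scan. The sum of 7 endothelial markers was 4.83 to 5.16 on AP arrays and 11.5 to 11.7 on control arrays, but without Esam, an adhesion molecule, it was 3.47 to 3.56 on AP arrays and 3.37 to 3.48 on control arrays, and of the 5 tested 3 were lower and 2 higher. The sum of 7 duct markers was 27.8 to 33.8 on AP arrays and 23.8 to 24.1 on control arrays, but without the bicarbonate transporter Slc4a4 it was 8.53 to 8.87 on AP arrays and 19.6 to 19.9 on control arrays, with 2 of 6 lower and 1 higher.

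Macrophages are a known source of IL-6. Of 12 macrophage markers 10 were tested, 2 were lower, 2 were higher and 6 did not pass, and Cd163 was not above background on any scan. The sum of the 10 markers with a value on every array was 40.1 to 41.4 on AP arrays and 39.8 to 40.2 on control arrays. It leaves out Lyz2, which had a value on 1 array of each group (6.29 on AP, 7.44 on control), and Cd68, which read 4.38 on 1 AP array and 2.89 and 3.64 on the control arrays; neither passed the test. The part of these cell types in the values of Il6, Stat3, Il10 and the targets was not tested.

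**Figure D4:**
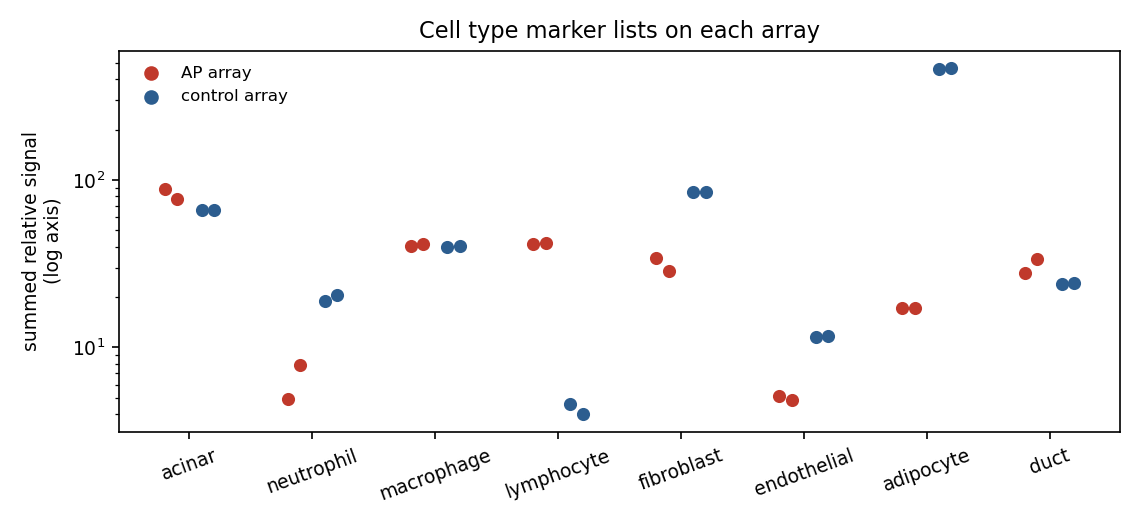
Summed relative signal (log axis) of 8 marker lists on each AP array (red) and each control array (blue). Lymphocyte sums lie higher on both AP arrays, at 41.3 and 42.2, and adipocyte and fibroblast sums lie lower there; the neutrophil, endothelial and duct gaps each rest on 1 marker (S100a8, Esam, Slc4a4), and the macrophage sum leaves out Lyz2 and Cd68.

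The genes whose pattern over the 4 arrays was nearest were found by the Euclidean distance of log2 levels centred on each gene's mean, over 8664 coding genes. With 4 arrays in 2 groups this mostly matches the size of the fold. For Il6 they were Wfdc21, Scd and Rnd1 (distances 0.123 to 0.173). For Stat3 they were Cacna1c, Ndufs5 and Atp5me (0.0225 to 0.0259). For Il10 they were Trib2, Psmb9 and Cdca8 (0.0283 to 0.0677). For Osmr they were Copz1, Lyn and Ces2g (0.0371 to 0.0697), though Osmr itself was at background.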

How the data were processed

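The deposited scanner output gives intensity values: per the file headers, a 1-colour gene expression protocol of Agilent Feature Extraction 11.0.1.1 produced each spot's processed signal, and no source used here describes its background step. Per the labels, the RNA was depleted of ribosomal RNA, amplified with random primers and labelled with Cy3. The authors' deposited normalized values are in log2 and have a median of 4.27 on every scan; no source used here gives their scaling method. They served as an alternative.

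Control spots and spots with an outlier mark were left out, spots of 1 probe were averaged in log2, and each scan's 75th percentile was subtracted. Probes were named through their accession, stripped of its version, in the RefSeq table for build GRCr8 (14294 probes). limma 3.58.1 (R 4.3.3) fitted AP against control on 4 arrays with 2 residual degrees of freedom; the fit was tested on simulated data. Tables were made with Python 3.11.15 and pandas 2.3.3. The files hold no mean spot signal, so normexp (offset 50) used median signals. A gene dim on all scans of a group is given as a bound. The members, lists and marker sets were chosen with earlier results of these data known. The rule for named genes took all 10 members, the 6 largest changes past the threshold in each pathway list, and the 3 nearest genes of Il6, Osmr, Stat3 and Il10; other genes named to spell out a count, a disagreement of probes or a receptor at background were picked with their values in view. Marker sums hold genes with a value on all 4 arrays, and were also taken without the brightest marker, a choice made after seeing the data. The 19 alternatives, 2 of them added after seeing the data, include another normalization, filters, the array as a left-out replicate and blocks. The result of 1 gene is not reported here.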

Additional observations from a re-analysis of the deposited data

How the results depend on the processing

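Il6 and Stat3 stayed lower and Il10 higher, past the threshold, in every alternative in which they were tested (18 for Il6, which the filter on all 6 scans removes, and 19 for Stat3 and Il10), with log2 fold changes of -7.37 to -2.27, -2.32 to -1.16 and 0.92 to 2.04. The count of changed genes among the 10 was 3 in the main setting and 5 with no scaling, which adds Il6r and Socs3, and 5 with no filter on dim probes, which adds Il6st and Osmr. A mean over the probes of a gene gave no separate value, since each of the 10 has 1 probe. Il6r was called lower with 6 scans as separate replicates (-0.36), with the scan session as a block (-0.36), without scaling (-1.28), with a robust variance trend (-0.33) and with probes above background on all scans (-0.33). Socs3 was -1.15 and called without scaling, and it changed sign with 6 scans as replicates (0.02), with the session as a block (0.02) and under normexp with the 75th percentile (0.01); with 1 array left out it ran from -0.60 to 0.22, and it changed sign without AP replicate 1 (0.03) and without control replicate 1 (0.22). The 6-scan fits count rescans as replicates. Probes past the threshold numbered 7283, or 2650 (931 higher and 1719 lower) under normexp with the 75th percentile, and 4639 to 5844 with 1 array left out. Under that normexp setting the lists counted 1 changed cytokine, 2 receptors and 6 kinases, STATs and regulators, against 5, 4 and 10. Under normexp with quantile normalization they counted 1 higher and 4 lower cytokines, 2 and 2 receptors, and 6 and 5 kinases, STATs and regulators. With probes above background on all scans they counted 3 cytokines and 2 receptors, since fewer genes were tested. Ctf1 and Il24 (0.14 each), Cacna1c (0.15) and Lyn (0.07) changed sign under normexp with the 75th percentile. Apart from these constructions the cause was not tested. Deviations of arrays with 1 replicate number correlated at -0.214 over 13149 probes, and those with crossed numbers at 0.214. With 2 arrays per group either value fixes the other, so they cannot show whether the numbers pair the arrays. With the replicate number as a block Il6 was -6.41 (adjusted p = 0.0107), 5518 probes passed, and the same count of 3 genes did; with the numbers crossed, 7293 probes passed.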
